A study of Mus musculus with 12 samples.

Results

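The interferon response genes are 41 genes chosen by name. They comprise 4 receptor subunits, 4 kinases and signal transducers, 5 interferon regulatory factors, 3 genes of RNA sensing, 22 induced effectors and 3 feedback inhibitors. Their peaks were read from ChIP-seq of microglia sorted as CD11b+ CD45lo cells from the perfused brains of 2-mo-old C57BL/6J mice. In KO mice both copies of *Cx3cr1*, the fractalkine receptor, were disrupted by eGFP (eGFP/eGFP), and WT littermates (+/+) carried no eGFP allele. Each library came from 3 mice of the same sex, pooled, and either genotype had 1 pool with a female and 1 with a male label for each of Rpb2, a subunit of RNA polymerase II, and H3K27ac, an acetylated histone found at active promoters and enhancers. Every comparison therefore sets n = 2 pools against 2, and p-values measure the spread between these pools. In bulk pools, more cells carrying a mark and more of the mark per cell cannot be told apart.

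Type I interferons bind the receptor made of Ifnar1 and Ifnar2, and interferon-γ binds the receptor made of Ifngr1 and Ifngr2. The kinases Jak1, Jak2 and Tyk2 then phosphorylate STAT proteins, and Stat2 joins Irf9 in the factor that binds the interferon-stimulated response element (ISRE) of target genes. Among the targets are antiviral effectors, such as the Mx and Oas proteins, and inhibitors that shut the pathway down again. In resting microglia the pathway is known for tonic, low-level activity, and its targets are known to rise with age and in disease.

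Of the 41 genes, 37 had a peak in at least one of the 2 tables, among 17538 genes in all. Rpb2 peaks were found at 30 genes, which held 93 of the 26706 Rpb2 peaks, and H3K27ac peaks at 37 genes, which held 151 of the 55862 H3K27ac peaks. All 4 receptor subunits, all 4 kinases and signal transducers, all 3 RNA sensing genes and all 3 feedback inhibitors had peaks of both marks. Of the 22 effectors, 12 had an Rpb2 peak and 18 an H3K27ac peak. *Irf7*, the regulator that amplifies interferon production, was assigned H3K27ac peaks only, and so were *Gbp2*, *Ifit1*, *Ifit2*, *Isg20*, *Oasl2* and *Rsad2*. By position, the Rpb2 peak assigned to *Ifit3* lay within *Ifit2*. No peak of either mark was assigned to *Ifi44*, *Oas1a*, *Oas2* or *Oas3*. The tables list called peaks only, so a gene without a peak was not detectable by this calling and was not shown to lack the mark.

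The libraries differed in depth and enrichment. Rpb2 libraries held from 11662185 to 44332626 reads, the deepest being that of the KO female pool, with 11.2% to 15.1% of reads in peaks. H3K27ac libraries held from 10395804 to 21134403 reads, and the share of reads in peaks was 15.9% in the WT female library against 61.1% to 65.3% in the other 3. The Rpb2 library labelled WT female held 136 reads at Y-linked genes, where that of the KO female pool held 0, so its sex label is in doubt. All 14 microglia markers had Rpb2 peaks, whose summed level was 13022 to 13084 RPM in WT pools and 12316 to 12787 in KO pools. Here RPM are reads per 1000000 reads in peaks after TMM scaling. Both KO pools thus lay below both WT pools at these markers. Markers of neurons, astrocytes, lymphocytes and neutrophils had no Rpb2 peak, and 1 of 6 markers of monocytes and border macrophages had one, with 30.9 to 49.0 RPM in the WT pools and 29.8 to 42.5 in the KO pools. Of the oligodendrocyte markers 2 of 5 had an Rpb2 peak, with 132 to 166 RPM in the WT pools and 131 to 160 in the KO pools. Of the endothelial markers 2 of 4 had one, with 71.8 to 87.9 RPM in the WT pools and 50.01 to 60.1 in the KO pools, which did not overlap. Their H3K27ac peaks, at 4 of 4, lay the other way, at 252 to 273 RPM in WT and 293 to 301 in KO pools, and the part of such cells in the results was not tested. H3K27ac peaks were more widespread, at 14 of 14 microglia markers and at 5 of 6 markers of monocytes and border macrophages. They also lay at 3 of 5 neuron, 3 of 5 astrocyte, 4 of 5 oligodendrocyte, 2 of 5 lymphocyte and 3 of 4 neutrophil markers. Summed H3K27ac levels of neuron, astrocyte and neutrophil markers were 59.3, 20.6 and 30.8 RPM in the WT female library. In the other 3 libraries they were 17.7 to 26.4, 0 to 0.64 and 0 RPM. That WT female library held least at microglia markers, 5015 against 6887 to 7935 RPM, and at oligodendrocyte markers, 323 against 341 to 376 RPM.

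Promoter sequences from RefSeq (GRCm38.p6, 250 bases before the transcription start site (TSS) and 50 from it on) were matched for 35 of the 41 genes. The ISRE was searched on both strands as GAAA, any 2 bases and GAAA. It stood in the promoters of 16 of the 35 genes, 45.7%, against 1079 of 27025 genes, 3.99%, in the whole promoter table. The interferon-γ activated site, searched as TTC, any 3 bases and GAA, stood in 11 of 35 genes, 31.4%, against 9.55% of all genes. Effectors held most of the ISRE matches, 11 of 17 matched genes, whereas none of the 4 receptor subunits held one. The *Isg15* promoter held 3 overlapping matches, at positions -78, -72 and -66 from the first transcribed base. A match describes letters in a window and is not evidence of binding.

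The 5 promoters below belong to members whose peaks are described with their values in what follows, and each is shown around its ISRE, in capitals, on the strand of the gene. The ISRE of *Stat2* lies in chr10:128270248-128270345 (+) and begins at position -222, that of *Irf2* in chr8:46739495-46739573 (+) and begins at -241, counted as for *Isg15*. The ISRE of *Rsad2* lies in chr12:26456503-26456632 (-) and begins at -120. Those of *Ddx58*, in chr4:40239796-40239883 (-), and of *Ifih1*, in chr2:62646206-62646235 (-), begin at 3 and 33, within the transcript.
Stat2: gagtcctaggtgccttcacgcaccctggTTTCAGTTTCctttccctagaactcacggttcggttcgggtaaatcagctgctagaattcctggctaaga
Irf2: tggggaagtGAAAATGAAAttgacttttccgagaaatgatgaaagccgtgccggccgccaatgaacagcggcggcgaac
Rsad2: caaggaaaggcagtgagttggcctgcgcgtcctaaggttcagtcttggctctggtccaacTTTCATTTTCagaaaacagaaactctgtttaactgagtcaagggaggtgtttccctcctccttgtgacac
Ddx58: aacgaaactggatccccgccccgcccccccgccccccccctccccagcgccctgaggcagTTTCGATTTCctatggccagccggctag
Ifih1: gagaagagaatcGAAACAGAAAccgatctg

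The level of Rpb2 at a promoter was measured at the gene's peak with the most reads within 1000 bp of a TSS, as reads per kb and per 1000000 reads in such peaks (Rpb2 density). Values are given in the order WT female, WT male, KO female and KO male throughout. Of the 41 genes, 26 had such a peak. Their median density lay at percentile 69.8 of the 8350 genes with one, and 17 of the 26 stood above the median gene, whose density was 308. Medians by role ran from percentile 88.2 for feedback inhibitors and 87.1 for receptor subunits to 39.3 for the 10 effectors and 34.0 for RNA sensing genes.

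Receptor subunits carried high Rpb2. *Ifngr1*, the ligand-binding chain for interferon-γ, had densities of 1116, 1390.1, 1455 and 1233, at percentile 96.4, and the pools of the genotypes overlapped. *Ifnar1*, a chain of the type I receptor, had densities of 466, 649, 788 and 743. Both KO pools of *Ifnar1* lay above both WT pools, with a log2 fold change, KO against WT, of 0.45 (SE 0.32, adjusted p = 0.674 in edgeR's quasi-likelihood test). With the reads of its 2 Rpb2 peaks summed, the log2 fold change was 0.098 (edgeR adjusted p = 0.925). *Ifnar2*, the other chain of that receptor, had 284, 710.4, 448 and 429.5, where its WT pools lay on both sides of the KO pools. *Ifngr2*, at 1083, 929, 916 and 851, was slightly lower in both KO pools.

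Among kinases and signal transducers, *Jak1*, the kinase shared by both receptors, was the highest, with densities of 474, 1242, 538 and 857. Its 2 WT pools were farther apart than the genotypes, and its log2 fold change was -0.31 (SE 0.35). *Stat2* had densities of 414, 358, 605 and 501, higher in both KO pools, with a log2 fold change of 0.52 (SE 0.36, edgeR adjusted p = 0.66). *Tyk2* had densities of 533, 320.3, 489 and 447, which overlapped between genotypes. *Jak2* had no Rpb2 peak within 1000 bp of a TSS.

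Among interferon regulatory factors, *Irf1*, a transcription factor induced by interferon-γ, had densities of 1206, 1288, 1609 and 1519, at percentile 97.0, the highest of all 26 genes. Its KO pools lay above its WT pools by a log2 fold change of 0.33 (SE 0.21, edgeR adjusted p = 0.631). *Irf3*, the factor activated by sensing of viral nucleic acid, was lower in Rpb2, at percentile 24.4. Its densities were 84.2, 196, 231 and 198, and its log2 fold change was 0.60 (SE 0.48, edgeR adjusted p = 0.707). *Irf9*, the DNA-binding partner of Stat2, had densities of 303, 349, 443 and 319, with overlapping pools. *Irf2* had Rpb2 peaks only farther than 1000 bp from a TSS.

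The 3 RNA sensing genes all had log2 fold changes below 0, though that of *Trim25* was -0.10 (SE 0.33) and turned above 0 with reads summed per gene, on total reads, without KO replicate 1 and without WT replicate 2. *Trim25*, a ubiquitin ligase that activates the sensor encoded by *Ddx58*, had the highest density of the 3, at 561, 826, 475 and 833, and its pools overlapped. *Ifih1*, a sensor of long double-stranded RNA whose promoter is shown above, had densities of 308, 287, 144 and 144. Both KO pools of *Ifih1* lay below both WT pools, with a log2 fold change of -1.05 (SE 0.41), which did not pass after adjustment over all peaks (edgeR adjusted p = 0.362). *Ddx58*, the sensor of short RNA with a 5′ triphosphate, had densities of 256, 105, 151 and 90.1, with overlapping pools and a log2 fold change of -0.56 (SE 0.64).

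Effectors spanned the widest range of percentiles, from 11.7 to 92.5. *Mx2*, a dynamin-like antiviral GTPase, was the highest, with densities of 1334, 762, 1058 and 795, and *Rtp4*, a chaperone of membrane receptors that interferon induces, the lowest, with 47.6, 105, 167 and 159. The difference of *Rtp4* had the largest size of the effectors, at a log2 fold change of 1.08 (SE 0.69, edgeR adjusted p = 0.619). The reads behind it were 8, 21, 111 and 49, so the WT values rest on few reads. *Isg15*, a ubiquitin-like modifier, had pools that overlapped, at 282, 79.0, 146 and 329.

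The other effectors with an Rpb2 promoter peak fell on either side of 0. *Bst2*, the tetherin that holds budding virus at the cell surface, had densities of 648, 623, 425 and 368, lower in both KO pools, with a log2 fold change of -0.68 (SE 0.35, edgeR adjusted p = 0.514). *Trim30a* was also lower in both KO pools, at 312, 307, 243 and 237. *Gbp3*, a guanylate-binding protein, was higher in both KO pools, at 104, 133, 154 and 234, and so was *Xaf1*, at 187, 107, 199 and 229.7. The adjusted p of these 3 genes lay between 0.674 and 0.816 in edgeR's test. *Ifi35*, with 953, 723, 726 and 738, *Parp14*, with 727, 650.4, 655 and 812, and *Mx1*, with 199, 234, 258 and 192, had pools that overlapped.

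The feedback inhibitors had unlike values. *Socs3*, which blocks Jak kinases, had even densities of 1272, 1396, 1293 and 1343, with a log2 fold change of -0.02 (SE 0.23). *Socs1*, an inhibitor of the same kinases, had 839, 864, 725 and 784. *Usp18*, a protease that removes Isg15 and dampens the type I receptor, had densities of 190.2, 179, 513 and 447. Both KO pools of *Usp18* lay well above both WT pools, with a log2 fold change of 1.38 (SE 0.42), which did not pass after adjustment (edgeR adjusted p = 0.241).

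**Figure D1:**
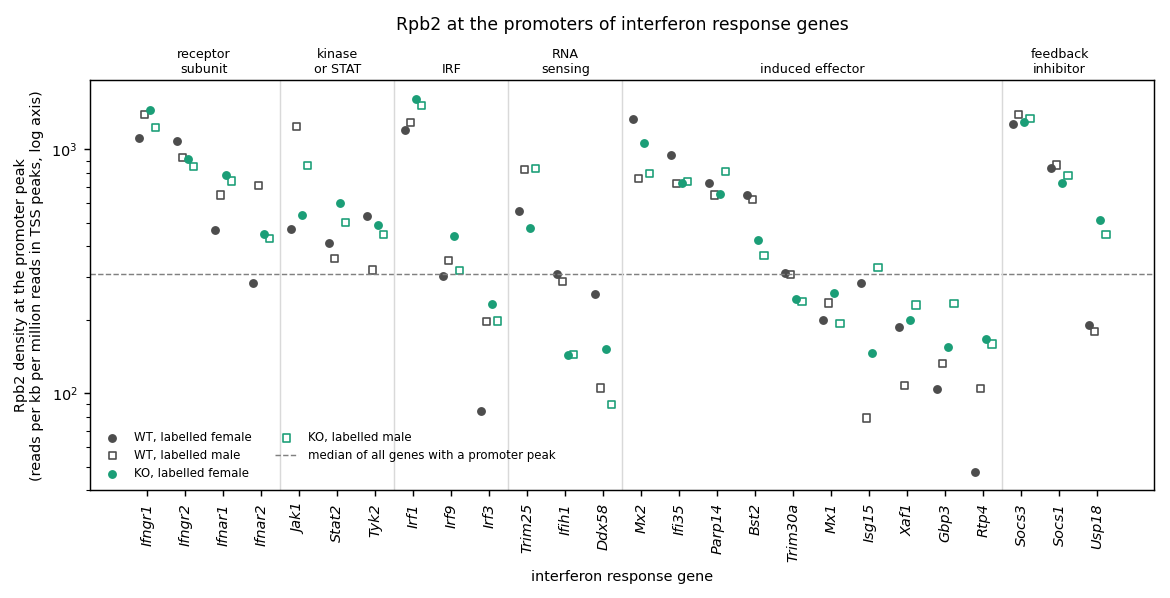
Rpb2 density at the promoters of the 26 interferon response genes with a peak within 1000 bp of a TSS, on a log scale, with a point for each WT and KO pool and the genes grouped by role. *Irf1*, *Socs3* and *Ifngr1* stand at the top and *Rtp4* lowest, and the KO points of *Usp18* lie above its WT points while those of *Ifih1* lie below.

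Across all Rpb2 peaks within 1000 bp of a TSS, the genotypes were compared at 33 peaks of the 26 genes. At an adjusted p under 0.05 none of the 33 passed in edgeR's quasi-likelihood test, as none of all 10125 peaks did (0%), and the lowest adjusted p of the 33 was 0.219. At an unadjusted p under 0.05 there was 1 peak higher in KO, 3.03% against a background of 4.42%, and 3 lower, 9.09% against 6.13%. The pools did not overlap at 11 peaks with KO higher and 8 with KO lower, where all peaks gave 21.7% and 20.4%. The median log2 fold change of the 33 peaks was 0.088, against 0.020 over all peaks, and 18 of the 33 were above 0, 54.5% against 51.6%. That median was not stable: it was -0.00076 over peaks of both lists, -0.0037 with reads summed per gene, 0.023 without KO replicate 1, 0.013 without KO replicate 2 and 0.18 without WT replicate 2.

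The 4 peaks with an unadjusted p under 0.05 lay at *Ifngr2*, *Usp18*, *Jak1* and *Ifih1*. At *Ifngr2*, the accessory chain of the interferon-γ receptor, the peak at chr16:91547065-91547281, centred 79 bp after the TSS, had 135, 173, 30.4 and 81.8 reads per 1000000 reads in TSS peaks. Both KO pools were below both WT pools, and the log2 fold change was -1.49 (SE 0.43, edgeR adjusted p = 0.219). The adjusted p was 0.0116 without KO replicate 2 and 0.022 without WT replicate 1, so that call depends on the pools used. The stronger peak upstream of it, at chr16:91546572-91546792, had a log2 fold change of -0.19 (SE 0.26).

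At *Jak1*, the peak at chr4:101264631-101264915, in the first intron and 509 bp after the TSS, had 43.0, 35.0, 11.6 and 1.42 on the same scale. Its log2 fold change was -2.47 (SE 0.84, edgeR adjusted p = 0.291), from 33, 32, 35 and 2 reads. The peaks of *Usp18* (chr6:121245851-121246077) and *Ifih1* (chr2:62646006-62646353) are the promoter peaks described above. Of the 4 peaks, those of *Ifngr2* and *Jak1* had been called in WT alone, that of *Usp18* in KO alone and that of *Ifih1* in both. Being called in 1 genotype is not independent of the reads there.

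**Figure D2:**
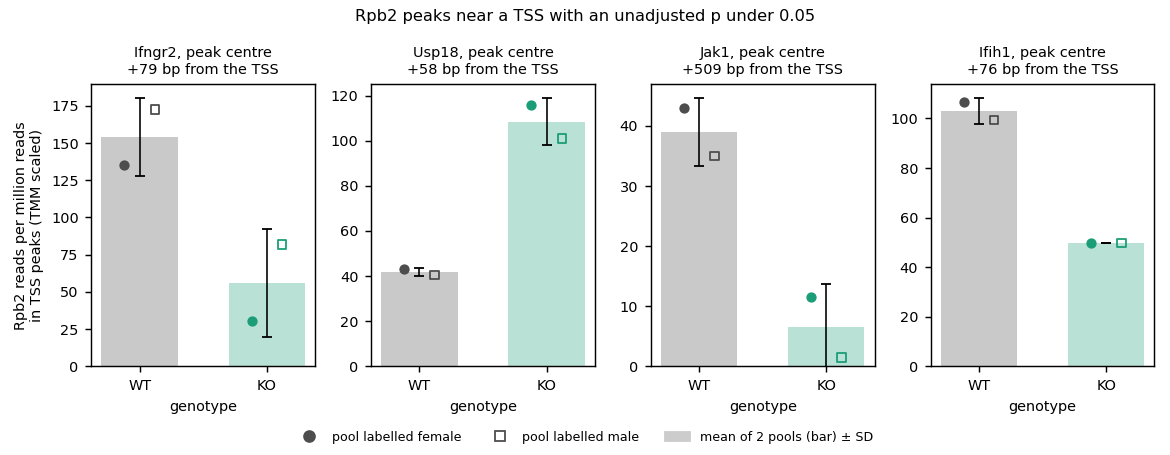
Reads per 1000000 reads in TSS peaks at the 4 Rpb2 peaks within 1000 bp of a TSS that had an unadjusted p under 0.05, with a point for each pool by genotype. The KO pools lie below the WT pools at *Ifngr2*, *Jak1* and *Ifih1* and above them at *Usp18*, and none passed at an adjusted p of 0.05.

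Rpb2 peaks at any distance from a TSS were compared at 93 peaks of the 30 genes, which take in introns (33 peaks), intergenic sites (21) and gene ends. None of the 93 passed at an adjusted p under 0.05, where 2 of all 26706 peaks did (0.00749%). Unadjusted, 7 of the 93 were higher in KO (background 6.12%) and 8 lower (6.06%). The pools did not overlap at 29 peaks with KO higher and 22 with KO lower, where all peaks gave 25.7% and 21.7%. DESeq2's Wald test called 8 of the 93 at an adjusted p under 0.05 and 3.83% of all peaks, so the count depends on the test. It also depends on either WT pool: edgeR called 13 of the 93 without WT replicate 1 (8.28% of all peaks) and 8 without WT replicate 2 (7.35%).

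The lowest p of the 93 peaks belonged to an intronic peak of *Irf2*, a factor that competes with Irf1, at chr8:46751987-46752338. Its reads were 0, 0, 82 and 30, which is at least 6.18-fold higher in KO with each WT library set to 3 reads (edgeR adjusted p = 0.198). A peak at the end of *Irf1*, chr11:53779126-53779407, held 0, 0, 84 and 20 reads, at least 5.36-fold higher (edgeR adjusted p = 0.198). In the first intron of *Trim25*, at chr11:89000474-89000794, the reads were 3, 0, 110 and 39, with a log2 fold change of 3.95 (SE 1.17, edgeR adjusted p = 0.227). All 3 of these peaks had been called in KO alone, and the KO female library, with the most reads, gave most of the KO reads.

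Lower in KO were 2 intronic peaks of *Ifngr1*. The peak at chr10:19600871-19601123 held 14, 46, 6 and 3 reads, with a log2 fold change of -4.15 (SE 0.99, edgeR adjusted p = 0.198). The one at chr10:19601963-19602193 held 27, 44, 23 and 0 reads, with a log2 fold change of -3.40 (SE 1.07, edgeR adjusted p = 0.252). Both had been called in WT alone, unlike the promoter peak of the same gene, whose log2 fold change was 0.10 (SE 0.23). Of the 15 peaks with an unadjusted p under 0.05, all 7 that were higher came from the KO list alone and 6 of the 8 lower from the WT list alone. Over all peaks of that kind, 96.0% of those higher came from the KO list alone and 53.6% of those lower from the WT list alone.

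H3K27ac at promoters was measured at the gene's assigned peak over the TSS, or else the nearest within 1000 bp, per kb and per 1000000 reads in peaks. By this assignment 36 of the 41 genes had one. Their median density lay at percentile 58.3 of 10506 genes, and 20 of the 36 stood above the median gene. Median percentiles by role ran from 85.0 for receptor subunits and 82.1 for feedback inhibitors to 32.8 for the 17 effectors. *Ifngr2* had the highest density, with 20.7, 29.5, 29.3 and 28.1 at percentile 96.8, over a peak 11322 bp wide. *Ifitm3*, an inhibitor of viral entry, had the lowest, with 6.78, 0, 0.304 and 6.58. Over genes with promoter peaks of both marks, the density of H3K27ac and that of Rpb2 had a Spearman's rho of 0.692 in 26 interferon response genes and 0.582 in all 7536, points that share the same libraries.

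**Figure D3:**
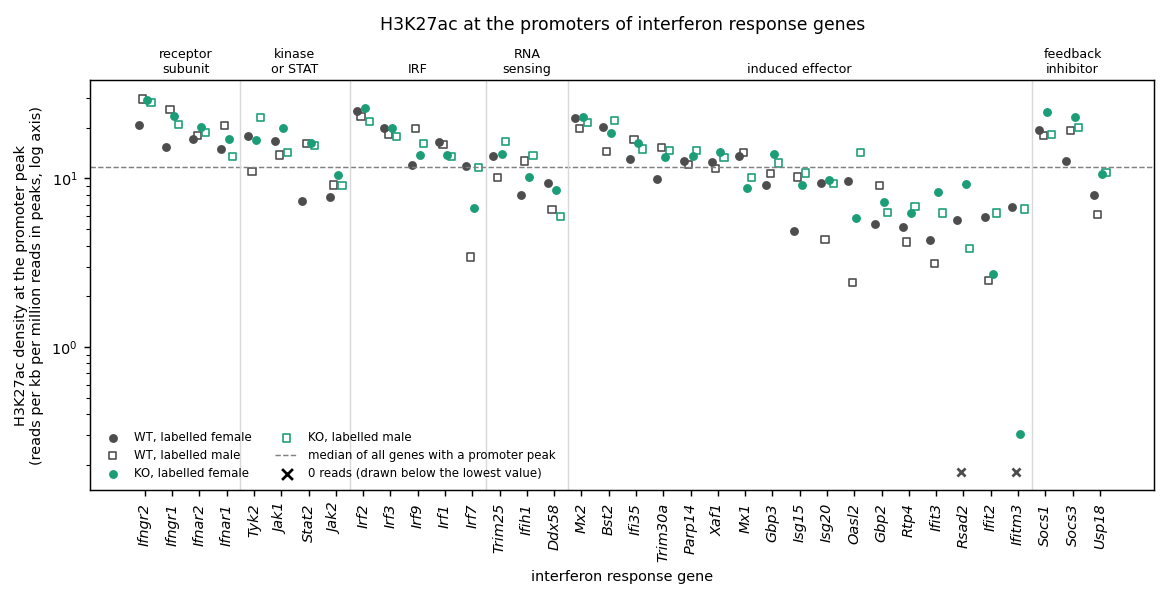
H3K27ac density at the promoters of the 36 interferon response genes with a promoter peak, on a log scale, with a point for each WT and KO pool and the genes grouped by role. Receptor subunits lie high, and effectors range from *Mx2*, near the top, to *Ifitm3*, the lowest.

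Some receptor and regulator genes were covered widely by H3K27ac. The median gene with a peak had 2 peaks and 2336 bp covered, and the median of the interferon response genes was 4585 bp. *Irf2* had 22 peaks over 54318 bp, *Ifngr1* 9 peaks over 34653 bp and *Jak1* 17 peaks over 31692 bp. *Ifnar2*, *Ifngr2* and *Socs3* also exceeded 20 kb, while 14 of the genes had 3 kb or less. *Ifit1* was assigned a single peak of 500 bp, which lay away from its promoter. An H3K27ac peak did lie over that promoter but was assigned to another gene.

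Neighbouring members lay in 5 clusters that held 13 of the genes. Their peaks were counted by the member they were assigned to and not by position. The members *Ifnar2*, *Ifnar1* and *Ifngr2* on chromosome 16 (91372783 to 91564007) had 24 Rpb2 peaks and 19 H3K27ac peaks. The Mx pair, on the same chromosome, held 3 and 4, the Ifit cluster on chromosome 19 held 1 and 5, and the Gbp pair on chromosome 3 held 1 and 4. No peak of either mark was assigned to the Oas members on chromosome 5. Peaks assigned to *Oas1b* (Rpb2) and *Oas1c* (H3K27ac), which are not members, lay within the span of that cluster. Members of the Ifit, Oas, Mx and Gbp families have near-identical stretches, and only uniquely mapped reads were kept, so their values are uncertain.

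H3K27ac was compared at all 151 peaks of the 37 genes. None passed at an adjusted p under 0.05, where 13 of all 55798 peaks did (0.0233%), and the lowest adjusted p of the 151 was 0.811 in edgeR's quasi-likelihood test. Unadjusted, none was higher in KO (background 1.35%) and 5 were lower (background 3.6%). The pools did not overlap at 27 peaks with KO higher and 21 with KO lower, where all peaks gave 14.3% and 13%. The median log2 fold change of the 151 peaks was 0.075, against -0.208 over all peaks, but the gap between these medians depended on the libraries and the filter. Without WT replicate 1 they were 0.152 and 0.140, and over peaks of both lists 0.101 and -0.0089. The newer quasi-likelihood method also called none of the 151, and DESeq2 none of the 122 to which it gave an adjusted p. The common dispersion was 1.28, while the standard errors of the log2 fold change at the members' promoter peaks ran from 0.29 to 3.90 with a median of 0.33, so peaks differed widely in how large a change could be detected. In simulated data with 200 peaks changed 4-fold, 0 were recovered when every peak had that dispersion and 176 when every peak had 0.05.

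Without the WT female library, which is the weakly enriched one, 3 of 140 peaks passed, all lower in KO, where 1.53% of all peaks did. That fit leaves 1 WT pool, assumed to vary like the others. The 3 peaks lay at *Ifnar2* (chr16:91365706-91368454, log2 fold change -1.16, edgeR adjusted p = 0.00617), in the first intron of *Jak1* (chr4:101212278-101214914, -1.08, adjusted p = 0.0357) and at *Ifngr1*. Without the WT male library instead, 25 of 150 passed, 15 higher and 10 lower, where 14.8% of all peaks did, so the calls depend on which WT pool is left out. In the fit of all pools, the *Jak1* peak had 29.1, 45.2, 23.5 and 19.5 RPM, with both KO pools below both WT pools and a log2 fold change of -0.80 (SE 0.33, edgeR adjusted p = 0.811). The *Ifnar2* peak had 25.1, 57.9, 27.4 and 24.6 RPM, so only the WT male pool was high and the genotypes overlapped. Its log2 fold change turned to 0.048 without that WT male pool.

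The other 3 lower peaks had few reads. An intergenic peak near *Ddx58*, chr4:40251868-40252368, held 36, 13, 2 and 0 reads, and an intronic peak of *Ifnar2*, chr16:91375964-91376592, held 20, 45, 8 and 0. An intronic peak of *Mx1*, chr16:97456177-97456677, held 38, 0, 0 and 0 reads, so the WT female library alone sets the difference.

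At promoters, the H3K27ac differences with the largest size in each role were small or uncertain. *Usp18* had densities of 7.98, 6.08, 10.6 and 10.9, higher in both KO pools, with a log2 fold change of 0.62 (SE 0.44, edgeR adjusted p = 0.811). *Ifnar1* had 15.0, 20.6, 17.2 and 13.5, and a log2 fold change of -0.22 (SE 0.29). *Tyk2*, the kinase bound to Ifnar1, had densities of 17.7, 11.0, 17.0 and 22.96, which overlapped between genotypes, with a log2 fold change of 0.49 (SE 0.32). *Trim25* had densities of 13.5, 10.1, 14.0 and 16.5 and a log2 fold change of 0.37 (SE 0.33). Neither passed the threshold. *Irf7* had 11.9, 3.42, 6.68 and 11.6, where the WT pools bracketed both KO pools. *Rsad2*, the antiviral enzyme viperin, had the largest size of the effectors, with a log2 fold change of 1.23 (SE 2.99) from 10, 0, 61 and 24 reads, an error larger than the difference.

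Over the 36 promoters, the log2 fold change was above 0 at 28, 77.8% against 57.8% of all genes with an H3K27ac promoter peak, with a median of 0.20 against 0.07. The peaks of *Stat2*, *Oasl2*, *Ifit3*, *Rsad2* and *Ifitm3*, all above 0, had been called in KO alone and the others in both genotypes. Their part in that count is therefore not independent of the calling. The weakly enriched WT female library also enters the count. At *Ifngr1*, *Ifngr2*, *Ifi35* and *Trim30a*, all above 0, both KO pools lay above the WT female pool but below the WT male pool. At *Irf7* and *Ifitm3*, also above 0, the WT pools lay the other way round. Without that library, the medians over H3K27ac peaks at any distance were 0.152 for interferon response genes and 0.140 for all. How far the promoter count depends on it was not tested. The KO pools lay above the WT pools at 9 of the 36, where 21.7% of all genes did, and below them at 2, where 11% did. *Socs3* was among the 9, with densities of 12.7, 19.2, 23.02 and 20.1 and a log2 fold change of 0.43 (SE 0.29). *Ifit3*, a partner of Ifit1 in binding viral RNA, had 4.29, 3.14, 8.35 and 6.24, and *Rtp4* had 5.12, 4.19, 6.28 and 6.83. The 2 lower genes were *Irf1*, at 16.4, 15.9, 13.8 and 13.5, and *Mx1*, at 13.6, 14.3, 8.82 and 10.1. The log2 fold changes of *Irf1* were thus 0.33 for Rpb2 and -0.24 (SE 0.29) for H3K27ac, with neither past the threshold. *Ifih1*, unlike *Irf1*, was lower for Rpb2 in both KO pools, while its H3K27ac densities of 7.92, 12.7, 10.2 and 13.6 overlapped.

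**Figure D4:**
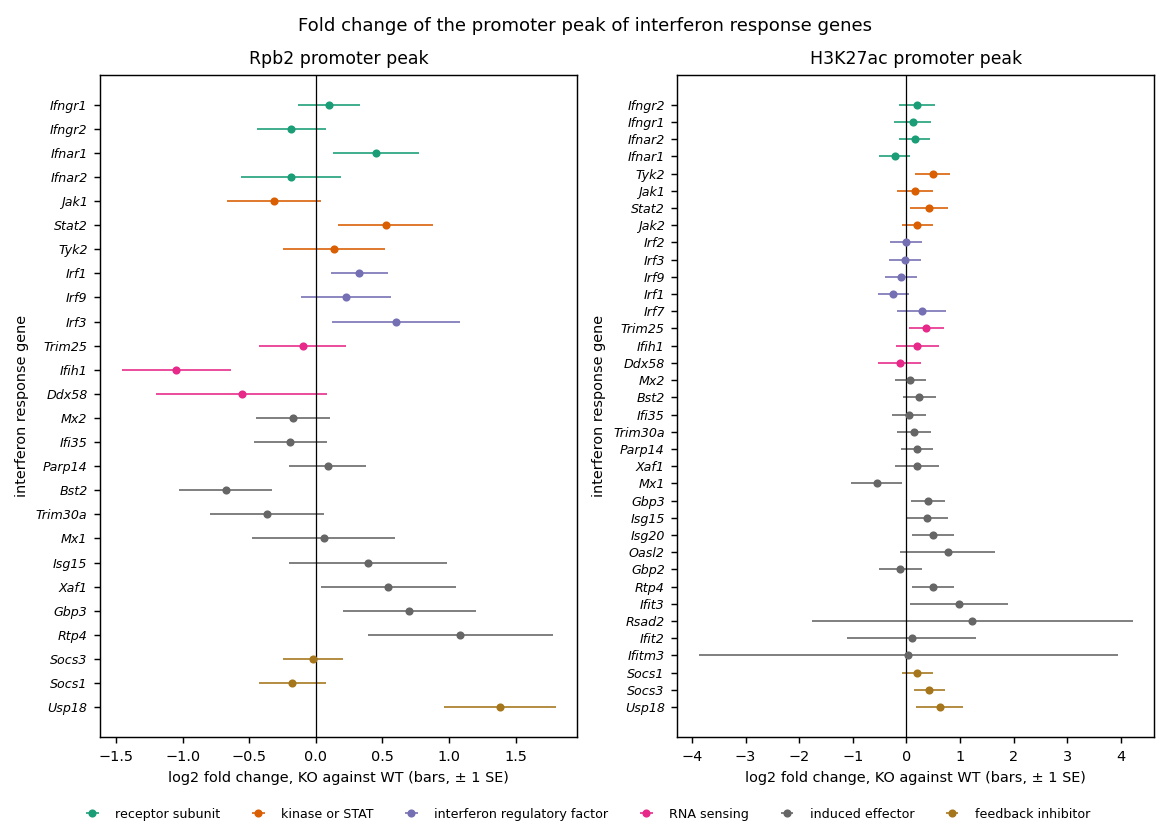
Log2 fold change, KO against WT, of the promoter peaks of the interferon response genes for Rpb2 and H3K27ac, with the standard error of the fit as bars and the genes grouped by role. Most bars reach across 0, *Usp18* lies to the right for both marks, and no peak passed at an adjusted p of 0.05.

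Over both marks, *Usp18*, *Gbp3*, *Rtp4* and *Xaf1* were the 4 of 26 genes with promoter peaks of both marks whose KO pools lay above the WT pools in each mark. Among all 7536 genes with promoter peaks of both marks, 425 did so (5.64%), and no interferon response gene lay lower in both, where 2.08% of all genes did. The Rpb2 peaks of *Usp18*, *Rtp4* and *Xaf1* had been called in KO alone and that of *Gbp3* in both genotypes. Having such a peak is thus not independent of its level in KO. By motif, the 8 Rpb2 promoter peaks of genes with an ISRE had a median log2 fold change of -0.27 and the 13 of genes without one had 0.10, and for H3K27ac the medians were 0.20 over 13 genes and 0.18 over 18. Left out for both marks were *Usp18*, *Rtp4*, *Parp14*, *Mx1* and *Mx2*, which had no promoter sequence to search. Their Rpb2 log2 fold changes were 1.38, 1.08, 0.088, 0.059 and -0.17, so these medians do not cover all the genes.

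A further list of 60 interferon-induced genes outside the 41 was examined in the same way. Of these, 34 had an Rpb2 promoter peak, at a median percentile of 44.4 and a median log2 fold change of 0.25, against 0.015 over all genes. Of their 41 Rpb2 peaks near a TSS, 4 reached an unadjusted p under 0.05 with KO higher and 1 with KO lower, where all such peaks gave 4.42% and 6.13%. Of those higher, the peaks of *Phf11d*, *Epsti1* and *Sp100* had been called in KO alone and that of *Dtx3l* in both genotypes. The count is therefore not independent of the calling. Nor is the median of 0.25, as other promoter peaks, such as those of *Shisa5*, *Pml* and *Slfn8*, had also been called in KO alone. The lowest adjusted p of the list's Rpb2 peaks within 1000 bp of a TSS was 0.407 in edgeR's test. *Dtx3l*, a ubiquitin ligase partner of a Parp protein, had 85, 97, 498 and 273 reads at its Rpb2 promoter peak, with a log2 fold change of 0.72. For H3K27ac, 42 of the 60 had a promoter peak, with a median log2 fold change of 0.14, against 0.07 over all genes. Some of these peaks, such as those of *Cmpk2* and *Ifi27*, had been called in KO alone. Only *Gbp5*, a guanylate-binding protein, had an unadjusted p under 0.05, with 93, 101, 494 and 399 reads, a log2 fold change of 0.73 and an edgeR adjusted p of 0.811.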

How the data were processed

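Rpb2 and H3K27ac ChIP-seq covered 12 samples of WT and *Cx3cr1*-KO microglia. Here 8 libraries were used and the 4 inputs were not. The authors aligned 51-nt reads to mm10 (Bowtie 2), discarded reads that did not map uniquely, called HOMER peaks, retained those reproducible between pools and merged the lists of both genotypes. The deposited counts are raw reads per merged peak for every library, with a normalization factor of 1 in the headers. The number of unused columns of per-sample values was 0. Coordinates are those of the tables, and their chromosome lengths and TSS were checked against GRCm38.p6.

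Genes were matched by the gene name of each peak. Members, role groups and the list of further interferon genes were chosen with earlier results of these data known. The test was edgeR's quasi-likelihood test (version 4.0.16, R 4.3.3, defaults, TMM factors, genotype only, Benjamini-Hochberg adjustment over all peaks, threshold 0.05), on peaks averaging 4 or more reads in either genotype. Rpb2 was fitted at peaks within 1000 bp of a TSS, after the study, and at any distance, and H3K27ac at all peaks. Fold changes against 0 reads used a floor of 3 reads per library, which covers counting error only. Named peaks were those with an unadjusted p under 0.05 (at most 8 per fit), and in each role the gene highest in Rpb2 and the gene with the largest promoter fold change in each mark. The other genes and peaks named were chosen after their values were seen.

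An exact permutation test with 2 pools against 2 cannot reach 0.05. The fits of Rpb2 at the TSS and of H3K27ac were tested on simulated data with 200 peaks changed 4-fold. That of Rpb2 at any distance was not tested in this way. For Rpb2 peaks at the TSS, 148 of 200 were recovered with 10 false calls when every peak had the common dispersion of 0.089. In both simulations the changed peaks were drawn only from peaks above a minimum of reads. Recovery at peaks with fewer reads was not measured. Whether the sex label pairs the pools was checked by the correlation of deviations from the group means, which was -0.00047 for Rpb2 at the TSS, -0.0076 at any distance and -0.00027 for H3K27ac, so no pairing was assumed. Alternatives were DESeq2 1.42.0, its size factors, total reads, loess offsets (limma 3.58.1), other filters, peaks of both lists, reads summed per gene, the sex label as a block and each pool left out. The newer quasi-likelihood method was added after seeing the data. Tables and figures were made with Python 3.11.15, NumPy 2.4.6, pandas 2.3.3 and matplotlib 3.10.9.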

Additional observations from a re-analysis of the deposited data

Results flagged for a closer look

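The H3K27ac promoter peak of *Irf7* moved in opposite directions in the pools of the 2 sex labels. The log2 ratio of KO to WT was -0.835 between the pools labelled female and 1.76 between those labelled male. The difference between these ratios was not tested, since there was 1 pool for each sex label and genotype. The female WT library is the weakly enriched one, and its part in the difference was not tested.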

How the results depend on the processing

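Over the 33 named peaks, 372 of 426 values under the alternatives kept direction and side of the threshold, 30 passed the threshold with the same direction and 24 changed sign, and 24 of the peaks never changed sign. These values are log2 fold changes. Of those that changed sign, all but the *Ifnar2* peak, at -0.69, were within 1 standard error of 0 in the fit of all pools, *Rsad2*, at 1.23, with an error larger than its size. The cause was not tested. For Rpb2 at the TSS, *Ifngr1* gave -0.15 with reads summed per gene, and leaving out 1 pool gave -0.046 to 0.27. *Jak1* gave -0.84 to 0.55 when 1 pool was left out. *Trim25* gave 0.099 per gene, 0.15 on total reads and -0.55 to 0.28 with 1 pool left out. *Mx2* gave 0.013 on total reads and -0.52 to 0.29 with 1 pool left out. *Socs3* gave 0.020 with at least 10 reads in every sample, 0.036 over peaks of both lists, 0.19 on total reads and -0.083 to 0.051 with 1 pool left out. For H3K27ac, *Ifnar1* gave 0.36 on total reads and -0.43 to 0.035 with 1 pool left out, *Ifnar2* -1.16 to 0.048 with 1 pool left out, *Irf7* -0.022 per gene and -0.38 to 1.41 with 1 pool left out, and *Rsad2* -0.68 per gene. Scaling by total reads moved the median log2 fold change of all peaks to 0.22 for Rpb2 at the TSS, 0.37 at any distance and 0.53 for H3K27ac.

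Of all Rpb2 peaks at the TSS, DESeq2 called 20, the filter of 10 reads 7, loess offsets 3, the newer quasi-likelihood method 36 and the sex label as a block 24, and leaving out 1 pool gave 14 to 237, the most without WT replicate 1. Of the interferon peaks there, 1, at *Ifngr2*, passed with the newer method (adjusted p = 0.046), with the block (adjusted p = 0.0421), without KO replicate 2 (0.0116) and without WT replicate 1 (0.022), so leaving out 1 pool gave 0 to 1. At any distance DESeq2 called 1022 of all peaks, the filter 30, loess 15, the newer method 272, peaks of both lists 8 and the block 4, and leaving out 1 pool gave 0 to 2210. Of the interferon peaks, DESeq2 called 8 and the newer method 5, and leaving out 1 pool gave 0 to 13, with 13 without WT replicate 1 and 8 without WT replicate 2. For H3K27ac, DESeq2 called 240 of all peaks and gave 29 of the 151 interferon peaks no adjusted p, the filter 1, and the newer method, peaks of both lists, peaks within 1000 bp of a TSS, reads per gene and total reads called 0 each, and leaving out 1 pool gave 2 to 8157. Of the interferon peaks, leaving out 1 pool gave 0 to 25, with 25 without WT replicate 2 and 3 without WT replicate 1. The sex labels share numbers only, and with 2 pools per genotype the block changed no other call of an interferon peak.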
